A study of Homo sapiens with 6 samples.

Results

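The transcripts described here come from 10 genes of the NF-κB pathway: the subunits RELA, RELB, REL, NFKB1 and NFKB2, the inhibitors NFKBIA and NFKBIE, the feedback regulators TNFAIP3 and BIRC3, and the kinase gene IKBKB. They were found by symbol, as a set chosen with earlier results of these data known, and are 10 of the 29982 symbols in the deposited table. All 10 passed the filter on low values, a mean of 1 FPKM or more, as did 13287 genes in all. FPKM is the number of fragments relative to transcript length and to the mapped reads of the library. Libraries were made from total RNA of OVCAR5, an established ovarian cancer cell line grown in high-glucose DMEM with serum. DMSO, the vehicle, was given to the cells of 2 libraries, SpiD7 at 10 μM for 2 h to those of 2 more, and SpiD7 at the same dose to those of 1 library for 6 h and of 1 for 12 h. The labels give no duration for the vehicle, while the study's text speaks of a vehicle for each time, and the deposited comparisons of the first 2 h library and of both later times share the first DMSO library. Nothing states that libraries with the same label came from separate cultures, so that every p-value below measures the spread between these libraries, which may be technical. SpiD7 is a spirocyclic dimer that carries α-methylene-γ-butyrolactone groups and reacts with cysteine residues of proteins. RELA and IKKβ, the product of IKBKB, are known protein targets of its monomer. The study's text adds that earlier work found RELA modified by SpiD7 itself, and that the dimer perturbs the NF-κB pathway too. The question followed here is how the transcripts of the pathway stood under the dimer. The second library of DMSO and of 2 h was recovered from a deposited group mean and is called the recovered library.

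NF-κB dimers are held in the cytoplasm by IκB proteins, of which NFKBIA encodes IκBα and NFKBIE encodes IκBε. When the IKK complex, with the catalytic subunit IKKβ, phosphorylates an IκB protein, the inhibitor is degraded and the dimer enters the nucleus, where it binds κB sites in the DNA. Genes switched on in this way include those of its own inhibitor IκBα, of the ubiquitin-editing enzyme A20 (TNFAIP3), of the ubiquitin ligase cIAP2 (BIRC3) and of several subunits, so that their transcripts are widely read as a sign of NF-κB activity.

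Matches to the κB motif before the RefSeq start of these genes are shown because the feedback members searched share them. Whether a match goes with the difference of a transcript between libraries was not tested. The promoter table of RefSeq (GRCh38.p14) held 7 of the 10 genes, with 11 start sites, and the 250 bases before each start were searched. The motif searched was GGG, a purine, any 2 bases, 2 pyrimidines and CC, which is 10 bases long, on both strands, with overlapping matches joined. At least 1 match was found for 6 of the 7 genes and in 7 of 11 windows, against 9.96% of all 35116 windows of the table. REL and NFKB1 each had 1 match before a start, NFKBIA had 1, and TNFAIP3, BIRC3 and each of 2 starts of NFKB2 had 2, while 0.795% of all windows held 2 or more. Neither window of RELA held these letters. RELB, NFKBIE and IKBKB were not searched. The windows printed for REL, NFKB1 and TNFAIP3 touch an exon of the gene as GENCODE annotates it, since its starts differ from those of RefSeq. A match is a description of the sequence and says nothing about binding in these cells. The windows below are read 5′ to 3′ on the strand of the gene, and the capitals mark the match. They lie at chr2:60881518-60881546 for REL (plus strand), chr4:102501300-102501329 for NFKB1 (plus strand), chr14:35404806-35404845 for NFKBIA (minus strand), chr6:137867188-137867217 for TNFAIP3 (plus strand) and chr11:102317270-102317373 for BIRC3 (plus strand).
REL: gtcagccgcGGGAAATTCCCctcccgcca
NFKB1: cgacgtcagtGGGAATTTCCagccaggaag
NFKBIA: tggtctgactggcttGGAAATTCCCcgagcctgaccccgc
TNFAIP3: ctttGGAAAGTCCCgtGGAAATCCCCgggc
BIRC3: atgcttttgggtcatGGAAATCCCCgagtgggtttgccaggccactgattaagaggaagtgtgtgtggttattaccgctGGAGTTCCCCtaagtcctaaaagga

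**Figure D1:**
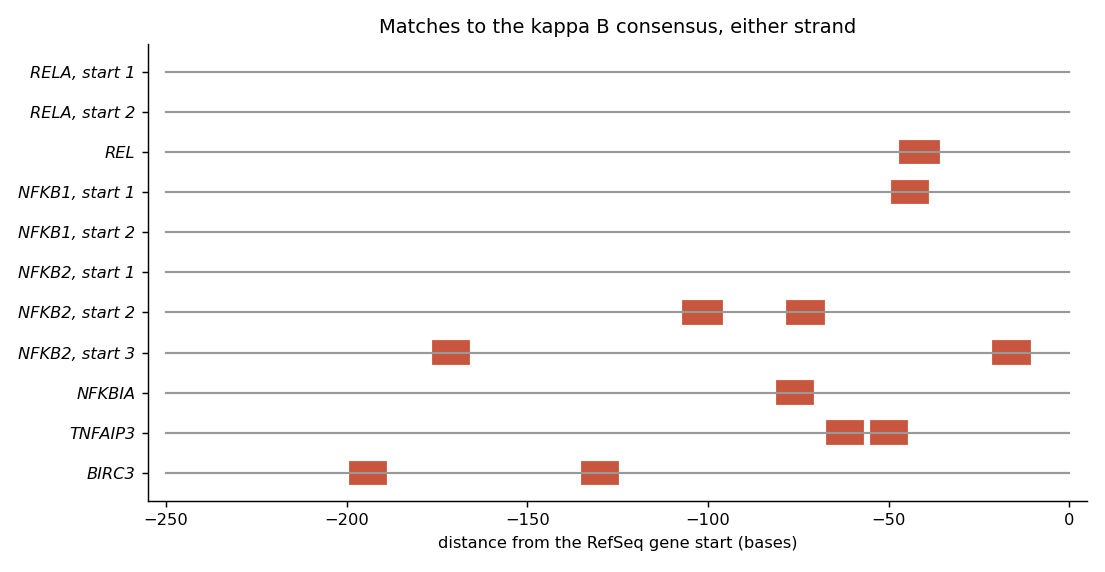
Matches to the κB motif on either strand in the 250 bases before each RefSeq start of the 7 genes in the promoter table. The x axis is the distance from the start in bases, each line is 1 start site and each block is 1 match or a joined pair of overlapping matches. The NFKBIA match begins 81 bases before its start, and both matches of TNFAIP3 lie within the last 67 bases.

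RELA was the steadiest subunit, NFKB1 differed moderately, and REL, RELB and NFKB2 differed several-fold between libraries of the same label. RELA (chr11:65653596-65663094 in GENCODE, minus strand), which encodes p65, the transactivating subunit of the most common dimer, was at 32.7 FPKM in the first DMSO library and 30.2 in the recovered one, at 33.5 and 25.5 in those of 2 h, then 29.8 after 6 h and 31.1 after 12 h. Its highest library was 1.31-fold above its lowest, the narrowest range of the 10 genes, and the DMSO and SpiD7 libraries overlapped. NFKB1 (chr4:102501329-102617302, plus strand), which encodes p105 and its product p50, was at 14.0 and 20.9 FPKM in DMSO, 13.7 and 20.2 at 2 h, 11.7 after 6 h and 8.91 after 12 h. The 6 h and 12 h libraries were the lowest, below both DMSO libraries, and the highest library was 2.33-fold above the lowest.

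REL, RELB and NFKB2 all stood higher in the recovered library of a label. REL (chr2:60881521-60931610, plus strand), which encodes c-Rel, was at 1.30 and 4.16 FPKM in DMSO, 3.68 and 9.29 at 2 h, 5.09 after 6 h and 3.61 after 12 h. RELB (chr19:45001430-45038198, plus strand), which encodes the partner of p52 in the non-canonical pathway, was at 2.99 and 13.6 FPKM in DMSO, 4.50 and 14.0 at 2 h, 11.1 after 6 h and 14.4 after 12 h. NFKB2 (chr10:102394110-102402529, plus strand), which encodes p100 and its product p52, was at 5.44 and 26.1 FPKM in DMSO, 6.77 and 22.5 at 2 h, 7.08 after 6 h and 9.56 after 12 h. REL lay above both DMSO libraries in the recovered 2 h library and the 6 h library, RELB lay just above them in the recovered 2 h library and the 12 h library, and every SpiD7 value of NFKB2 lay between them.

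NFKBIA, TNFAIP3 and BIRC3 held the widest ranges of the 10 genes. NFKBIA (chr14:35401511-35404749, minus strand) was at 35.5 FPKM in the first DMSO library and 223 in the recovered one, at 25.5 and 42.7 at 2 h, 27.3 after 6 h and 41.1 after 12 h. The recovered DMSO library stood far above the other 5 libraries, which lay between 25.5 and 42.7 FPKM. TNFAIP3 (chr6:137867188-137883312, plus strand), whose product removes ubiquitin chains from upstream adaptors, was at 1.75 and 49.3 FPKM in DMSO, 2.48 and 11.3 at 2 h, 4.43 after 6 h and 6.87 after 12 h. Its SpiD7 libraries all lay between the DMSO libraries, which were 26.7-fold apart. BIRC3 (chr11:102317450-102339403, plus strand) was at 0.837 and 27.3 FPKM in DMSO, 1.05 and 15.4 at 2 h, 1.26 after 6 h and 0.697 after 12 h. Both recovered libraries stood far above the other 4. The deposited loci of TNFAIP3 and REL run beyond the genes of these names in GENCODE, so that their values may include reads of neighbouring transcripts.

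NFKBIE and IKBKB varied less. NFKBIE (chr6:44258166-44265788, minus strand) was at 4.45 and 9.27 FPKM in DMSO, 4.87 and 8.33 at 2 h, 6.14 after 6 h and 6.41 after 12 h. Every SpiD7 library lay within its DMSO range. IKBKB was at 10.05 and 8.20 FPKM in DMSO, 11.5 and 8.91 at 2 h, 9.39 after 6 h and 6.85 after 12 h, so that its 12 h library was the lowest of the 6.

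**Figure D2:**
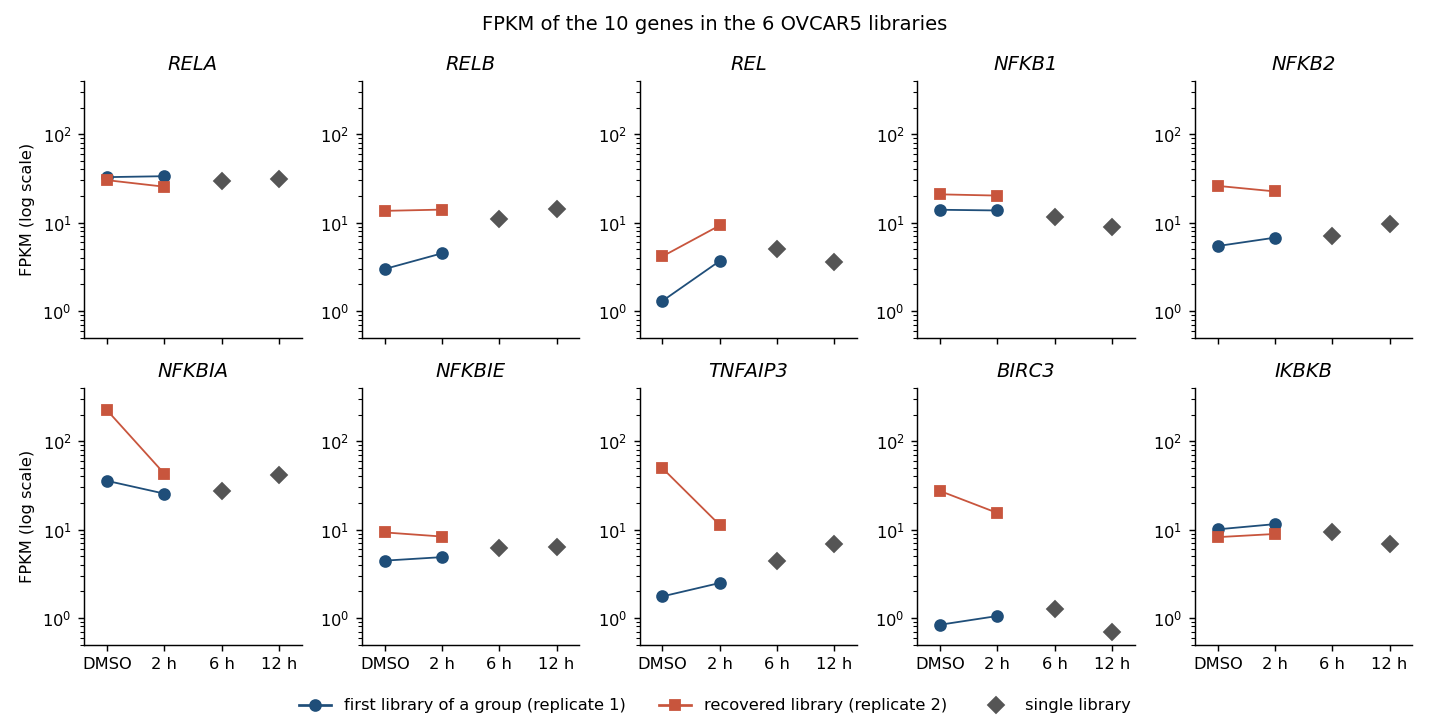
FPKM (log scale) of the 10 genes in each of the 6 OVCAR5 libraries, with the treatment on the x axis. Circles are the first library of a label, squares the recovered library, diamonds the single libraries at 6 h and 12 h, and lines join libraries of the same number. NFKBIA, TNFAIP3 and BIRC3 have their highest value in the recovered DMSO library, at 223, 49.3 and 27.3 FPKM.

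The order of the genes by FPKM, which is a level per transcript length, differed between the vehicle libraries. In the first DMSO library NFKBIA and RELA led at 35.5 and 32.7 FPKM, and TNFAIP3, REL and BIRC3 were last at 1.75, 1.30 and 0.837. In the recovered DMSO library NFKBIA led at 223 FPKM, TNFAIP3 followed at 49.3, and BIRC3 stood next to RELA at 27.3 and 30.2. Between these libraries 7 of the 10 genes were more than 2-fold higher in the recovered one, with 8.72% of all genes, and 0 of 10 more than 2-fold lower, with 4.77% of all genes. NFKBIA led in both libraries, and for the others of those 7 genes the place among neighbours could not be set beyond that spread.

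The difference between libraries of the same label was therefore measured before any difference with SpiD7. A gene was counted when its recovered library was more than 2-fold above its first library both in DMSO and at 2 h, on the log2(FPKM + 0.1) scale that is used for every fold and log2 difference here. RELB, REL, NFKB2, TNFAIP3 and BIRC3 met this, 5 of 10 genes, against 4.95% of all genes. In the opposite direction 0 of 10 met it, against 2.66% of all genes. BIRC3 was 29.2-fold higher in the recovered library in DMSO and 13.5-fold higher at 2 h. For TNFAIP3 these folds were 26.7 and 4.39, for NFKB2 4.72 and 3.30, for RELB 4.43 and 3.08, and for REL 3.04 and 2.48. NFKBIA was 6.26-fold higher in the recovered library in DMSO and 1.68-fold higher at 2 h. NFKBIE and NFKB1 were higher in the recovered libraries by smaller folds, at 2.06 and 1.49 in DMSO, and RELA and IKBKB were slightly lower in both. The median log2 difference of the 10 genes, recovered minus first library, was 1.88 in DMSO and 1.04 at 2 h, while the median over all genes was -0.06 in each.

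A limma model with the treatment and the replicate number as terms, chosen after these values were seen, tested this difference over all genes. It called 8.69% of all genes at an adjusted p below 0.05 and more than 2-fold, and 4 of the 10 genes: BIRC3 (log2 difference 4.31 ± 0.37 SE, limma adjusted p = 0.0369), NFKB2 (1.98 ± 0.18, adjusted p = 0.0370), RELB (1.88 ± 0.18, adjusted p = 0.0378) and REL (1.46 ± 0.11, adjusted p = 0.0369). NFKB1 and NFKBIE passed the same p threshold in limma at less than 2-fold, with log2 differences of 0.57 (adjusted p = 0.0394) and 0.90 (adjusted p = 0.0420). TNFAIP3 and NFKBIA, whose excess in the recovered library was much larger in DMSO than at 2 h, did not pass, with limma adjusted p-values of 0.0858 and 0.149. RELA and IKBKB did not pass either, with log2 differences of -0.25 and -0.33.

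**Figure D3:**
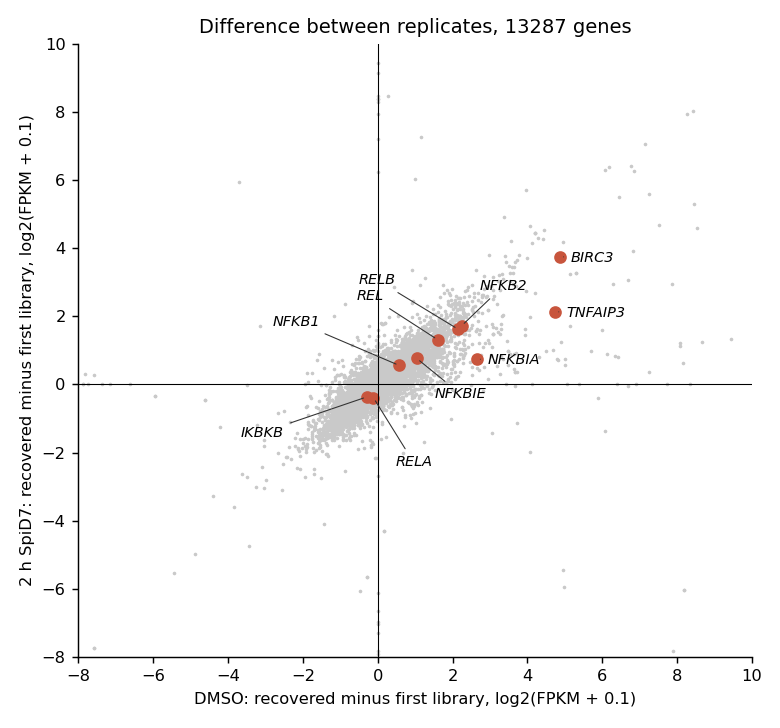
Recovered minus first library in log2(FPKM + 0.1), in DMSO on the x axis and at 2 h of SpiD7 on the y axis. Each grey point is 1 of 13287 genes and the orange points are the 10 named genes, and a few genes lie beyond the axis limits. BIRC3 and TNFAIP3 lie far to the right at 4.87 and 4.74, and NFKBIA lies below the run of the other genes, at 2.65 in DMSO and 0.75 at 2 h.

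Other properties of the libraries went with this split. The recovered DMSO and 2 h libraries had 25.04% and 21.8% of their FPKM total in 1 short transcript, MIR6723, against 5.04% to 9.19% in the other 4 libraries, and their depth relative to the first DMSO library was 0.895 and 0.769. The median ratio of each library to the others over all genes was between -0.03 and 0.04 on the log2 scale. All 6 epithelial markers were present in every library, EPCAM at 77.4 to 86.5 FPKM and KRT8 at 1459 to 2194, and their summed level, most of it KRT8 and KRT18, was 3151 to 3690 in the recovered libraries and 3934 to 4721 in the others. CDH1 went the other way, at 19.2 and 19.3 FPKM in the recovered libraries and 10.4 to 12.8 in the others. Of the Müllerian markers PAX8 was at 1.64 to 2.12 FPKM, while SOX17 was listed at 0 and WT1 and MUC16 stayed at or below 0.686 FPKM. Of these 4 markers only PAX8 passed the filter on low values, and at a low level. Of 4 leukocyte markers CD3E was listed at 0 and PTPRC stayed at or below 0.0317 FPKM. The summed level of that list was 34.4 to 42.2 in the recovered libraries and 27.6 to 36.5 in the others, and most of it was CD68. CD14 did not follow the split, at 4.96 and 3.10 FPKM in the recovered DMSO and 2 h libraries and 4.08 to 9.36 in the others. The 2 endothelial markers PECAM1 and CDH5 summed to 11.4 and 8.28 FPKM in the recovered DMSO and 2 h libraries against 0.433 to 1.11 in the others, with CDH5 at 0.725 FPKM or less. The 3 fibroblast markers summed to 2.98 and 2.67 against 0.981 to 2.06. The part of these values in the members' differences was not tested, and in bulk RNA a change in the number of cells that make a transcript and in the RNA made per cell cannot be told apart.

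After 2 h of SpiD7, none of the 10 genes was called as different from DMSO. limma without a block, over all 13287 genes, called 0 of the 10 genes and 0.0226% of all genes, with 378 genes below an unadjusted p of 0.05, of which 0 were among the 10. The 3 genes called were MIR1260B, SNORA18 and SNORA32, genes of small RNAs that were listed at 0 in both 2 h libraries and are named after their values were seen. REL had the largest positive difference, with a log2 difference of 1.29 ± 0.80 SE (limma unadjusted p = 0.193, adjusted p = 1), and NFKBIA the largest negative difference, at -1.43 ± 1.05 (unadjusted p = 0.256, adjusted p = 1). For TNFAIP3 the difference was -0.82 ± 1.98 and for BIRC3 -0.26 ± 2.34, and with errors of that width this fit could not detect changes of several-fold in either. The spread in this fit includes the difference between replicate numbers. With the replicate number as a block the errors were 0.84 for TNFAIP3 and 0.37 for BIRC3, and neither gene was called. Without the block RELA (-0.10 ± 0.22), IKBKB (0.16 ± 0.23) and NFKB1 (-0.04 ± 0.34) had the tightest estimates, near 0. In no gene did both 2 h libraries lie above both DMSO libraries, or below them. The first of these arrangements held for 13.7% of all genes and the second for 8.10%. In 7 of the 10 genes the DMSO libraries were more than 2-fold apart, which leaves little room for either arrangement. The count of 0 therefore does not show a lack of response.

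Compared between libraries of the same number, 1 gene differed in the same direction by more than 2-fold each time. REL was 2.70-fold higher at 2 h in the first libraries and 2.21-fold higher in the recovered libraries. Only REL passed 2-fold upwards, in the first libraries, where 3.27% of all genes did, and in the recovered libraries, where 2.50% did. The share of all genes that passed in both was not counted. NFKBIA was lower in both comparisons, 1.39-fold in the first libraries and 5.21-fold in the recovered ones. TNFAIP3 was 1.39-fold higher in the first libraries and 4.36-fold lower in the recovered ones, and BIRC3 was 1.23-fold higher and 1.77-fold lower. Passing 2-fold downwards were 0 of 10 genes in the first libraries, with 0.572% of all genes, and 2 of 10 in the recovered libraries, NFKBIA and TNFAIP3, with 1.05% of all genes. The sign depended on the libraries in 5 of 10 genes, and in all 5 the recovered libraries gave the lower difference. Besides TNFAIP3 and BIRC3 these were NFKB2, with log2 differences of 0.31 and -0.21, NFKBIE, with 0.13 and -0.15, and RELA, with 0.03 and -0.24. How many of all genes changed sign in this way was not counted, so the count cannot be called particular to the 10 genes.

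At 6 h and 12 h there was 1 library each and no test, and the reading of most members turned on the vehicle library used. At 6 h, RELB (3.63-fold), REL (3.71-fold) and TNFAIP3 (2.45-fold) were more than 2-fold above the first DMSO library, where 6.28% of all genes were, and 0 of 10 were more than 2-fold below it, with 0.993% of all genes. Against the recovered DMSO library 0 of 10 were more than 2-fold higher, with 7.76% of all genes, and 4 of 10 were more than 2-fold lower, with 7.77% of all genes. These were BIRC3 (20.1-fold lower), TNFAIP3 (10.9-fold), NFKBIA (8.14-fold) and NFKB2 (3.64-fold). TNFAIP3 was thus counted as higher and as lower at the same time. More than 2-fold above both DMSO libraries were 0 of 10 genes and 3.21% of all genes, and below both 0 of 10 and 0.610% of all genes.

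The pattern at 12 h was similar, with NFKB1 added. RELB (4.70-fold), TNFAIP3 (3.76-fold) and REL (2.65-fold) stood above the first DMSO library, where 8.21% of all genes passed 2-fold, and 0 of 10 stood below it, against 4.03% of all genes. Against the recovered DMSO library 0 of 10 stood above, with 7.01% of all genes, and 5 of 10 below, with 7.56% of all genes. They were BIRC3 (34.3-fold lower), TNFAIP3 (7.09-fold), NFKBIA (5.41-fold), NFKB2 (2.71-fold) and NFKB1 (2.33-fold). Past 2-fold from both were 0 of 10 genes in either direction, with 3.88% of all genes higher and 0.993% lower.

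A few members kept their direction against both vehicle libraries without passing 2-fold each time. NFKB1 was lower at 12 h by a log2 difference of -0.65 against the first and -1.22 against the recovered DMSO library, and at 6 h by -0.25 and -0.83. IKBKB was lower at 12 h by -0.55 and -0.26, while its 6 h differences were -0.10 and 0.19. RELB at 12 h was higher by 2.23 against the first DMSO library and by 0.09 against the recovered one, and REL at 6 h by 1.89 and 0.29. NFKBIA at 6 h was lower by -0.38 and -3.02. RELA stayed between -0.14 and 0.04 in all 4 of these comparisons.

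**Figure D4:**
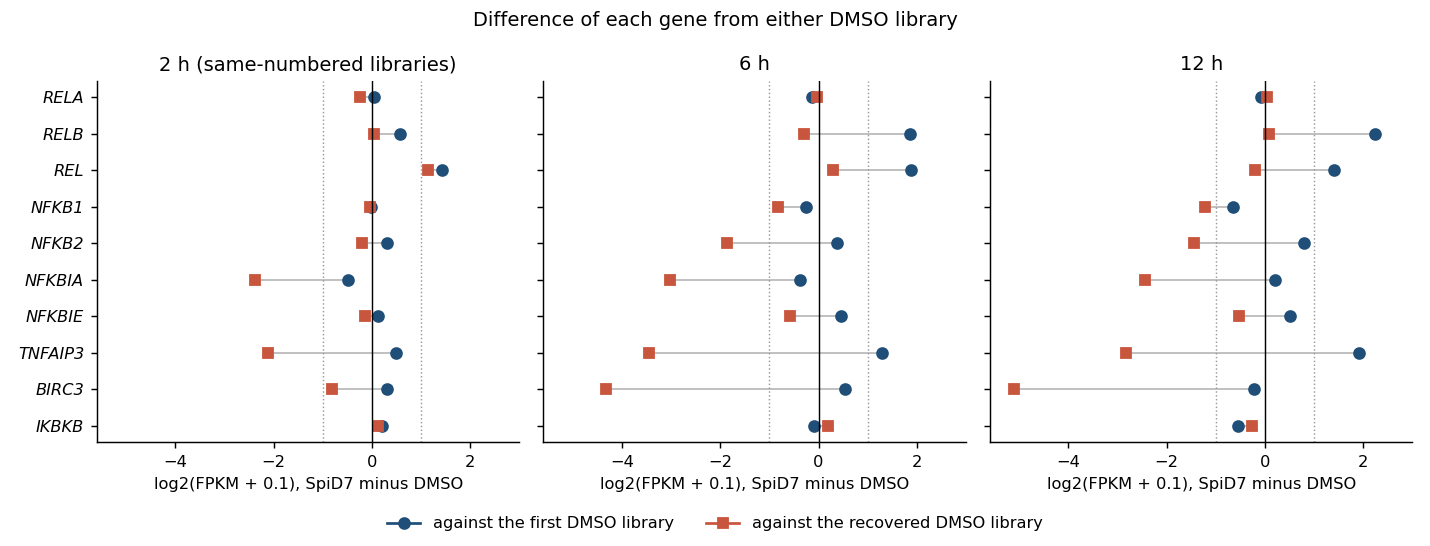
SpiD7 minus DMSO in log2(FPKM + 0.1) for the 10 genes, with circles against the first and squares against the recovered DMSO library. At 2 h each library is set against the DMSO library of its own number, dotted lines mark 2-fold, and no error can be given for single libraries. At 12 h the circle and square of TNFAIP3 lie on opposite sides of 0, at 1.91 and -2.83, and both symbols of RELA lie near 0.

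The late libraries were also placed by which vehicle library they lay nearer to. Of the 5 genes that were higher in the recovered library in both labels, BIRC3, TNFAIP3 and NFKB2 lay nearer the first DMSO library at 6 h and at 12 h, and RELB and REL lay nearer the recovered one at both times. Among all 658 such genes, 545 lay nearer the first DMSO library at 6 h and 462 at 12 h. The labels give no batch for the 6 h and 12 h libraries, so that time and library source cannot be told apart for these genes.

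The other genes of the pathway were read from lists of 84 genes, of which 76 passed the filter on low values. limma at 2 h called 0 of 12 kinases, 0 of 4 other IκB proteins, 0 of 23 adaptors and ubiquitin enzymes, 0 of 15 ligands, receptors and their adaptors, and 0 of 22 other target genes, against 0.0226% of all genes. More than 2-fold from both DMSO libraries in the same direction were 0 of the 76 genes at 6 h and 0 at 12 h, when 3.21% and 3.88% of all genes were higher and 0.610% and 0.993% lower. The split between first and recovered libraries ran mainly through the target genes. Of the 76 genes 21 were more than 2-fold higher in the recovered library both in DMSO and at 2 h, with 4.95% of all genes, and 15 of these were among the 22 target genes. In the opposite direction were 2 of 76, TNFRSF12A and IRAK1, the latter named after its values were seen, with 2.66% of all genes. The median recovered-minus-first difference in DMSO was 3.74 for the target genes, 1.42 for the other IκB proteins, -0.05 for the kinases, -0.12 for the adaptors and ubiquitin enzymes and 0.00 for the ligands and receptors.

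At 12 h the ends of each list were picked by their difference from the mean log2 of both DMSO libraries. Picking them so favours values outside both. Of these 10 genes 9 lay on the same side of both, some only just, with MAP3K8 between them. Among the kinases MAP3K8, an activator of the MEK and NF-κB pathways, was highest (log2 difference 1.29, with 1.26 and 10.95 FPKM in DMSO and 9.35 at 12 h) and IKBKE, an IKK-related kinase, lowest (-1.54, with 2.15 and 12.7 FPKM in DMSO and 1.75 at 12 h). Of the other IκB proteins NFKBIB, which encodes IκBβ, was highest at 0.81 and BCL3, a nuclear coactivator of p50 and p52, lowest at -0.77. NFKBIB was at 34.2 and 25.5 FPKM in DMSO and 51.7 at 12 h, above both vehicle libraries, and BCL3 at 34.8 and 19.6 FPKM in the recovered and first DMSO libraries and 15.3 at 12 h, below both.

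CYLD, a deubiquitinase that restrains the pathway, was the highest of the adaptors and ubiquitin enzymes at 0.91, with 2.25 and 4.32 FPKM in DMSO and 5.94 at 12 h. BIRC2, the paralogue of BIRC3 that encodes cIAP1, was the lowest at -0.89, with 26.0 and 26.9 FPKM in DMSO and 14.2 at 12 h. It thus differed little between the vehicle libraries, unlike BIRC3. TNFRSF12A, the receptor of TWEAK, was the highest of the ligands and receptors at 1.29 (281 and 103 FPKM in DMSO, 416 at 12 h), and LTB, which encodes lymphotoxin β, the lowest at -4.02 (0.322 and 59.9 FPKM in DMSO, 0.211 at 12 h). Among the target genes CD83 was highest at 0.72, with 4.18 and 11.1 FPKM in DMSO and 11.4 at 12 h. CXCL1, a neutrophil-attracting chemokine, was lowest at -3.72, with 0.578 and 102 FPKM in DMSO and 0.531 at 12 h. Against the first DMSO library alone, the log2 differences at 12 h were -0.44 for LTB and -0.10 for CXCL1.

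**Figure D5:**
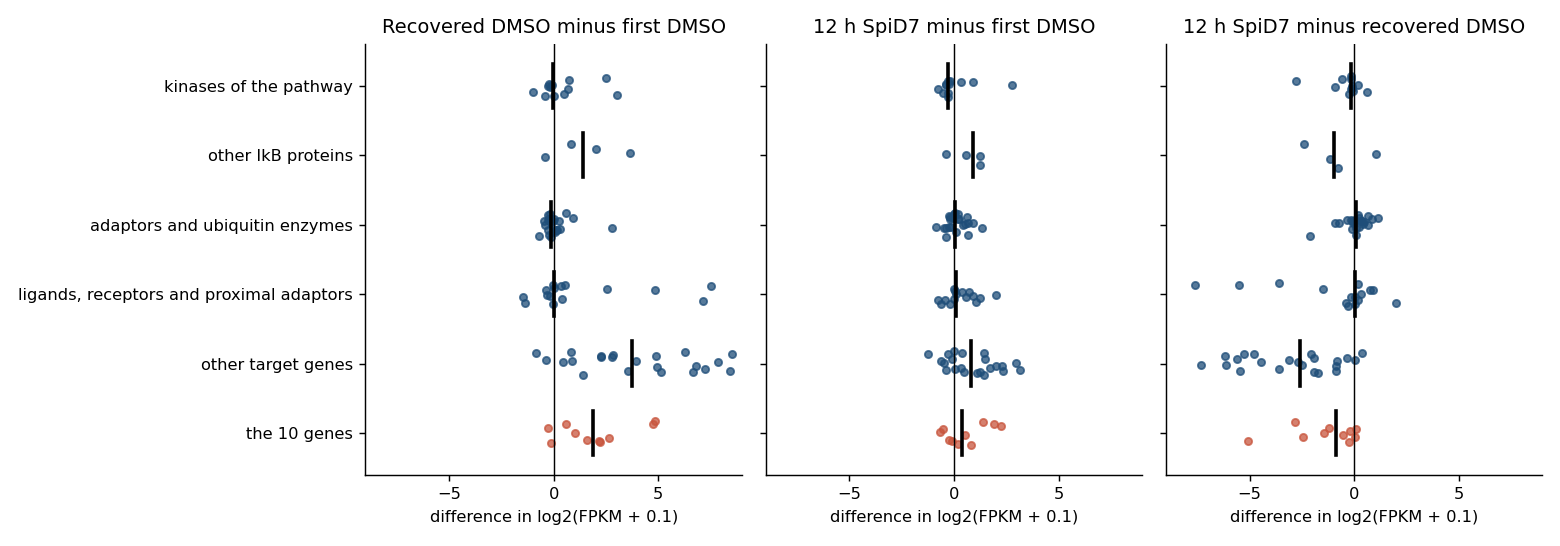
Differences in log2(FPKM + 0.1) for the genes of 5 pathway lists (blue) and for the 10 named genes (orange), with recovered minus first DMSO on the left, 12 h minus first DMSO in the middle and 12 h minus recovered DMSO on the right. Points are genes, spread at random in height, and black bars are medians. The median of the target genes is 3.74 on the left, 0.80 in the middle and -2.61 on the right.

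Genes with the level pattern most like that of a member were found by the root mean square difference of log2 values, centred on each gene's mean over the 6 libraries. Nearest to NFKBIA were RCAN1, at 0.26, ELMSAN1, at 0.38, and NUAK2, at 0.41. RCAN1, a calcineurin regulator, was at 14.8 and 137 FPKM in DMSO and at 16.2 to 27.9 FPKM in the SpiD7 libraries. Nearest to TNFAIP3 were NEURL3 (0.34), CSF2 (0.38), which encodes a growth factor of myeloid cells, and NEDD9 (0.46). CSF2 was at 0.237 and 11.7 FPKM in DMSO and 4.14 in the recovered 2 h library. Nearest to BIRC3 were the chemokine genes CCL28 (0.29) and CXCL6 (0.32) and S100A9 (0.35), which encodes a calcium-binding protein of inflamed epithelia and myeloid cells. S100A9 was at 12.5 and 220 FPKM in DMSO, 10.9 and 194 at 2 h, 10.1 after 6 h and 10.7 after 12 h, and so was high in both recovered libraries and low in all 4 others. Nearest to RELA were EHMT2, a histone methyltransferase gene (0.03), MESDC1 (0.03) and ABHD12B (0.04), all with a narrow range. Outside the recovered libraries CCL28 stayed at or below 0.454 FPKM and CXCL6 at or below 0.145, so that both passed the filter through the recovered libraries. NEURL3 was at 0.144 and 0.140 FPKM in the first DMSO and first 2 h libraries. For these genes the likeness rests partly on values near the floor. All these likenesses rest on 6 libraries and describe levels only.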

How the data were processed

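RNA-Seq libraries of OVCAR5 cells numbered 6 (2 DMSO, 2 SpiD7 for 2 h, 1 each for 6 h and 12 h). The authors trimmed single-end reads with Trim Galore, aligned them with TopHat2 (version 2.0.8) and estimated expression with Cufflinks (version 2.1.1), per the submitters' processing notes. They deposited FPKM values for both sides of 4 Cuffdiff (version 2.1.1) comparisons, each scaled on its own, as well as their fold changes, p-values and q-values, which were not used. The notes name a mouse and a human build, and the deposited loci are human. Columns of comparison 2 carry the replicate 2 names, but no row above 0 in the first DMSO library (18195) was at 0 there (0 rows), and no more than 6 rows lay below a fixed share of the first library, 52.6% for DMSO and 50.9% for 2 h. They were read as the authors' means, and replicate 2 is the mean less that share of the first library, divided by the share. A remainder below 0.2% of the mean was taken as 0. Every recovered value rests on this reading. The 6 h and 12 h values were divided by 0.972 and 0.994, the ratios of the shared DMSO column to its values in comparison 1.

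Rows of one symbol were summed, genes below a mean of 1 FPKM were left out, and log2(FPKM + 0.1) was tested with limma 3.58.1 in R 4.3.3 (lmFit, eBayes, Benjamini-Hochberg over all genes). The pseudocount understates folds of low genes. The test was checked on simulated data, which had the same small spread in every gene and no difference between replicate numbers. The check therefore does not cover genes that differ between replicates, as most members do. Python 3.11.15 (pandas 2.3.3, numpy 2.4.6) was used for the tables. The table holds no counts: total depth is unknown, only relative depths could be read from the steps of low values, no counting error is given, and an exact 0 can be a failed estimate. Rows of a gene without stated strand may share reads with overlapping transcripts. The members and lists were chosen with earlier results of these data known. Named genes were every member, the highest and lowest of each list at 12 h, list genes more than 2-fold from both DMSO libraries at 6 h, 12 h or in both 2 h libraries (there were none) and the 3 genes nearest to NFKBIA, TNFAIP3, BIRC3 and RELA. MIR6723 was named after its values were seen. Alternatives were other pseudocounts, filters, scalings, a row in place of the sum, an intensity trend, a replicate block, the authors' means and leaving out each replicate.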

Additional observations from a re-analysis of the deposited data

How the results depend on the processing

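At 2 h limma called 0 of the 10 genes under every alternative that kept both libraries of each label. These fits called few or no genes of any kind, so that this sameness does not show that the members did not respond. The number called among all genes, 3, was 1 with a pseudocount of 1, 6 with a pseudocount of 0.01, 0 without the filter on low values (1198 at an unadjusted p under 0.05), 1 with upper-quartile scaling and 5 with an intensity trend, and it was 12 without the first and 20 without the recovered DMSO library, 0 without the first and 21 without the recovered 2 h library, where the lone library of a label is assumed to vary like the others. With the replicate number as a block limma called 0 genes (1874 at an unadjusted p under 0.05). The libraries share only a number, and when each library was taken as its deviation from the mean of its label, DMSO and 2 h libraries of a number correlated at 0.369 over genes. In the blocked limma fit REL had a log2 difference of 1.29 ± 0.11 SE (unadjusted p = 0.00384, adjusted p = 0.329), the only member with an unadjusted p under 0.05, and the block changed no call of a member. Of the members' log2 differences at 2 h, NFKB2 reversed to -0.15 from the authors' means. Leaving out a replicate gave 14 reversals among 40 values. The difference ran from -0.30 to 0.092 for RELA, -0.76 to 1.38 for RELB, -0.32 to 0.25 for NFKB1, -1.07 to 1.17 for NFKB2, -0.53 to 0.51 for NFKBIE, -3.19 to 1.55 for TNFAIP3, -2.70 to 2.17 for BIRC3 and -0.028 to 0.34 for IKBKB. It stayed above 0 for REL, at 0.49 to 2.09, and below 0 for NFKBIA, at -2.75 to -0.11. The number of members more than 2-fold from both DMSO libraries, 0 at either time, was 4 at 6 h and 5 at 12 h without the first DMSO library and 3 at either time without the recovered one, which by construction leaves a comparison with the other alone. The causes of the other changes were not tested. Precision is limited by the 2 libraries per label and the single libraries at 6 h and 12 h.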

Other observations

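The genes of the pathway lists that were more than 2-fold higher in the recovered library both in DMSO and at 2 h, named after their values were seen, included the chemokine genes IL8, CXCL1, CXCL2, CXCL3, CCL2 and CCL20, the adhesion genes ICAM1 and VCAM1, and SOD2, a mitochondrial superoxide dismutase. IL8 was at 0.421 and 191 FPKM in the first and recovered DMSO libraries, at 1.69 and 43.4 at 2 h, and at 2.22 after 6 h and 2.50 after 12 h. CCL2, a monocyte attractant, was at 32.0 and 496 FPKM in DMSO, 37.2 and 251 at 2 h, 32.0 after 6 h and 41.5 after 12 h. CCL2 thus lay near the first DMSO library at 6 h and 12 h, while IL8 was 4.46-fold and 5.00-fold above it and still far below the recovered one. The cytokine genes LTB, IL1A and IL1B, whose products activate the pathway, were in the same group, with IL1B at 3.19 and 95.1 FPKM in DMSO, 3.67 and 52.8 at 2 h, 5.41 after 6 h and 7.81 after 12 h. Of the 21 genes of the lists in this group, 19 lay nearer the first DMSO library at 6 h and at 12 h, and ZC3H12A and CD83 lay nearer the recovered one.

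Between the libraries of the same number at 2 h, 11 of the 76 genes of the lists were more than 2-fold lower in the recovered libraries and 11 more than 2-fold higher in the first libraries, with 1.05% and 3.27% of all genes, while 0 of 76 passed 2-fold in the opposite direction in either, with 2.50% and 0.572% of all genes. The genes IL8, CXCL2, CXCL3, CCL20, PTGS2 and IL1A were in both counts. In the first libraries they were near the floor, at 0 to 0.421 FPKM in DMSO and 0.213 to 1.69 at 2 h. Their folds there rest on small values, and their mean levels come mostly from the recovered libraries. The genes of this paragraph were named after their values were seen. PTGS2, which encodes an inducible cyclooxygenase, was at 0.363 FPKM in DMSO and 1.45 at 2 h in the first libraries and at 35.9 and 12.0 in the recovered ones. NFKBIZ, which encodes the inducible nuclear IκBζ, was at 6.13 FPKM in DMSO and 31.9 at 2 h in the first libraries and at 79.1 and 41.2 in the recovered ones. MAP3K14, which encodes NIK, the kinase of the non-canonical pathway, was at 8.03 and 13.2 FPKM in DMSO, 24.1 and 24.8 at 2 h, 20.1 after 6 h and 15.1 after 12 h, and so lay above both vehicle libraries in every SpiD7 library. At 2 h, 13.7% of all genes had both libraries above both vehicle libraries.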
